A study of Apis mellifera with 6 samples.

Results

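Queen and worker honey bees (Apis mellifera) were compared at adult emergence, through RNA-seq of central brains from 2 queen pools and 2 worker pools, which are 4 of the 6 libraries of the series. The members of the comparison were chosen by the caste label, and the difference was described over all genes that passed a filter on low counts. The other 2 libraries, from drones, entered the fit to share the estimate of the spread and are not described. Queens and workers were both diploid females that shared a mother, collected at most 1 hour after eclosure. Queens had been grafted as first-instar larvae into queen cups, workers came from frames of capped brood, and both were held in an incubator before they emerged. Each library was a pool of 5 brains dissected without optic lobes, and the hypopharyngeal glands, which lie beside the brain, were removed from workers. Since all bees shared a mother and each caste has 2 pools, p-values measure the spread between pools, the drone pools among them.

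A female larva becomes a queen or a worker through its diet, which acts through insulin and juvenile hormone signalling. The adult worker brain serves nursing and later foraging, and the worker head carries large hypopharyngeal glands that secrete royal jelly proteins. The queen mates within days of emergence and then lays eggs. Ecdysone and juvenile hormone time the moults and the remodelling of the nervous system that ends at emergence.

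The deposited values were estimated counts per transcript, summed here per gene and expressed as counts scaled to parts per 1e6 (CPM) after scaling by TMM, a method that sets the bulk of genes to no difference. Totals per library lay between 7685185 estimated counts (worker replicate 2) and 44373783 (queen replicate 1), so genes with few counts were measured least precisely in workers. Across genes, the correlation of log2 CPM was 0.991 between the queen pools and 0.980 between the worker pools. Ribosomal RNA genes held 12.5% and 13.1% of the paired counts in queens against 7.05% and 8.30% in workers, and they were left out of totals and tests.

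The strand of a gene set its level in every library, and this limits what can be read from the tables. Of the protein-coding genes, 4992 placed on the plus strand of the assembly and 4900 on the minus strand. Median levels on the plus strand were 58.6 and 58.8 CPM in queens and 60.05 and 59.3 CPM in workers, whereas those on the minus strand were 0.696 and 0.897 CPM in queens and 0.685 and 0.590 CPM in workers. The same gap was found on each of the 16 chromosomes, where plus-strand medians lay between 33.9 and 80.8 CPM and minus-strand medians between 0.558 and 0.977 CPM. Minus-strand genes together held only 4.502% and 4.79% of counts in queens and 3.44% and 3.45% in workers. Genes that cells use at high levels showed it too, since the ribosomal protein genes Rps14, Rpl41 and RpL35 on the plus strand had at least 165 CPM in each queen and worker library, and Rpl39 and RpLP1 on the minus strand had at most 2.95 CPM. The library kit keeps the strand of the RNA and the reads were assigned by strand. The cause of the gap was not tested, since no transcript sequence was at hand. Plus-strand genes therefore carry the description, and values of minus-strand genes are given apart, as counts assigned to them and not as their level of expression.

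**Figure D1:**
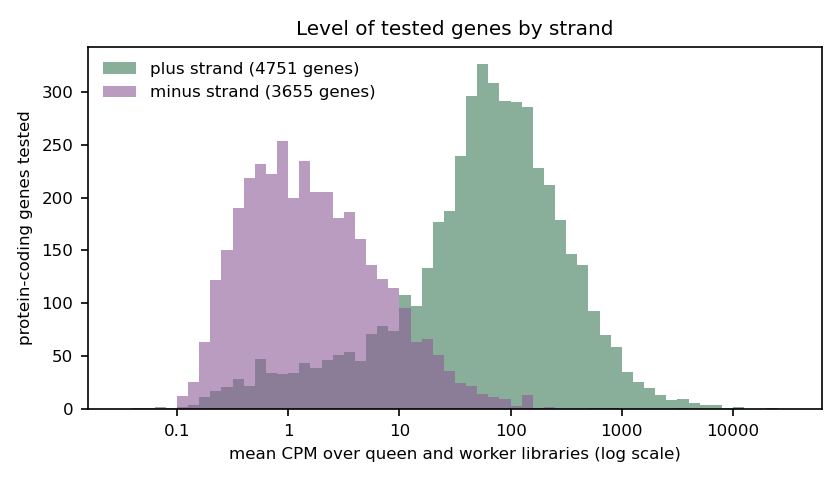
Mean CPM over the 2 queen and 2 worker libraries (log scale) of the tested protein-coding genes, as the number of genes per bin, for the plus strand (green) and the minus strand (purple). The 4751 plus-strand genes centre near 65.4 CPM, while the 3655 minus-strand genes pile up near 1 CPM.

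Queens and workers differed in 2158 of 9694 genes tested (22.3%) when the quasi-likelihood F test of edgeR, adjusted by the Benjamini-Hochberg method, was read at a false discovery rate (FDR) under 0.05, which is what "called" means from here on. Of these, 1152 (11.9%) were higher and 1006 (10.4%) lower in queens, and 844 (8.71%) had a log2 fold change over 1 in size. On the plus strand, 1674 of 5519 genes were called (30.3%), with 845 (15.3%) higher and 829 (15%) lower in queens. None of these 1674 genes had overlapping queen and worker libraries. With 2 libraries against 2 this nearly follows from the call itself, and it also held for uncalled genes such as Tsf1 and GlnS. Called with a log2 fold change over 1 in size were 500 (9.06% of those tested). On the minus strand, 484 of 4175 genes were called (11.6%), 307 (7.35%) higher and 177 (4.24%) lower. The median log2 fold change over these 4175 genes was 0.26, against -0.04 over plus-strand genes. The even split on the plus strand depended on the scale. On transcript abundances per 1e6 (TPM), where each library sums to 1 fixed total, limma called 1332 plus-strand genes higher and 512 lower, which is 72.2% higher against 50.5% here. The median log2 fold change over plus-strand genes was then 0.12, against -0.04 with TMM, so the direction of small differences depends in part on the scaling.

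Most called differences were small. Among plus-strand genes called higher in queens the median log2 fold change was 0.70, with 281 genes (5.09% of those tested) above 1, 107 above 2 and 8 above 5. Among those called lower the median size was 0.57, with 219 genes (3.97%) beyond 1, 99 beyond 2 and 20 beyond 5. The genes called lower made up 14.5% and 13.9% of all CPM in queens against 27.1% and 28.6% in workers, and the genes called higher 30.5% and 29.0% in queens against 18.2% and 20.1% in workers. The share called grew with the level of a gene. Of 498 plus-strand genes below 1 CPM, 2.41% were called higher and 1.61% lower, and of 132 genes above 1000 CPM, 27.3% and 22.7%.

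**Figure D2:**
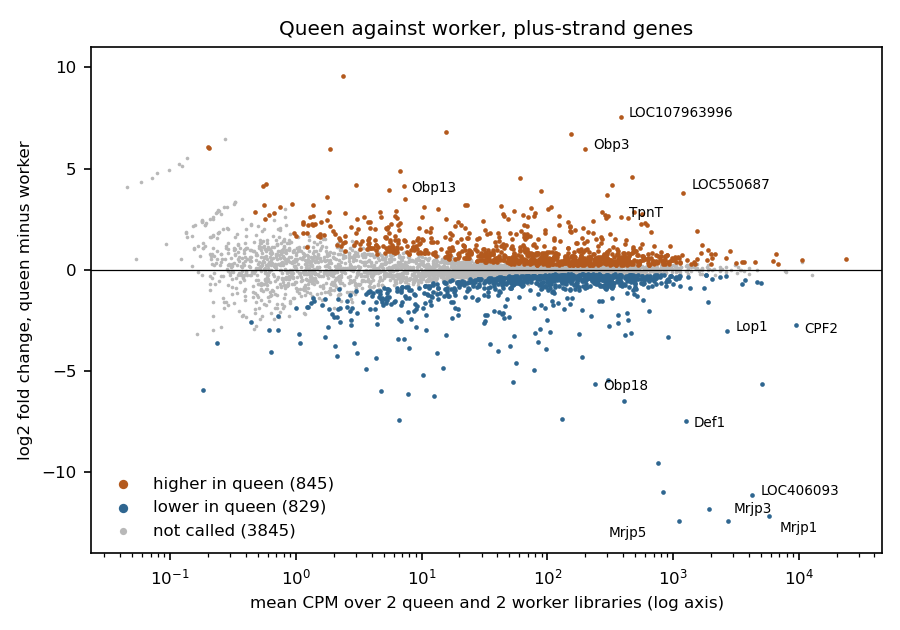
Log2 fold change (queen minus worker) of 5519 plus-strand genes against their mean CPM (log axis), with genes called higher in queen in orange, lower in blue and not called in grey. The royal jelly genes lie at the foot of the plot at high CPM. The points include 13 genes at 0 counts in a caste, all at low CPM, whose fitted values depend on the prior count.

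The strongest differences were genes low in queens. Major royal jelly proteins, secreted by the worker's hypopharyngeal glands and fed to larvae, are encoded by 9 neighbouring Mrjp genes on the plus strand of chromosome 11 (2268450 to 2325880, Amel_HAv3.1), and 8 of the 9 were called lower in queens. Mrjp1 had 2.68 and 2.37 CPM in queens against 11212 and 11952 CPM in workers (log2 fold change -12.13, standard error 0.22, FDR 2.09e-10). Mrjp3 had 0.979 and 1.05 CPM in queens, from 38 and 20 counts, against 5299 and 5592 CPM in workers (-12.39, FDR 2.72e-11). Neither gene overlapped between castes, and the queen values of both sat far below the worker values. Mrjp5, Mrjp2 and Mrjp4 had at most 2.35 CPM in a queen library and at least 1495 CPM in a worker library, with log2 fold changes of -12.38, -10.96 and -9.52. Mrjp6 (-7.36) and Mrjp7 (-4.58) were lower by smaller factors. At the far end of the cluster the order broke: Mrjp8 had 10.5 and 10.6 CPM in queens against 12.5 and 11.9 CPM in workers and was not called (-0.22, FDR 0.405), and Mrjp9 had 0.747 and 0.738 CPM in queens against 2.999 and 2.80 CPM in workers (-1.96, FDR 0.0111). Mrjp9 was no longer called without queen replicate 1 (FDR 0.0941), queen replicate 2 (FDR 0.102) or worker replicate 1 (FDR 0.0704).

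Per transcript length, the worker levels of the family fell in a steep order. Mrjp1 stood at 13144 and 13443 TPM in workers, followed by Mrjp3 at 4800 and 4884 TPM and Mrjp5 at 1965 and 2000.4 TPM. Mrjp2 had 1782 and 1723 TPM and Mrjp4 1490.1 and 1501 TPM, so that each step was larger than the gap between the worker pools. In queens the highest member was Mrjp7 at 5.88 and 5.61 TPM, apart from Mrjp8. Members of this family resemble each other in sequence, and the division of reads between them is the authors' estimate.

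**Figure D3:**
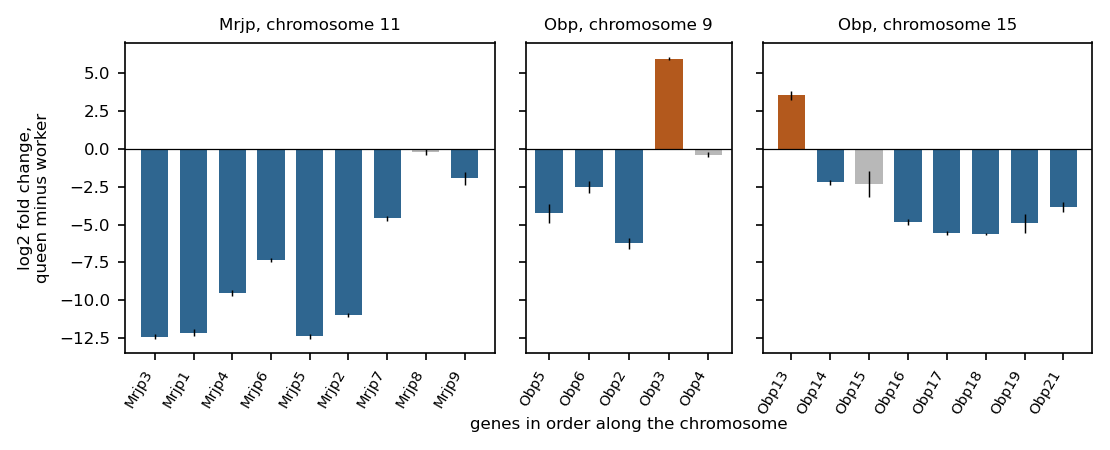
Log2 fold change (queen minus worker, bars, with standard errors) of plus-strand genes in their order along 3 clusters, the Mrjp genes of chromosome 11, and the Obp genes of chromosomes 9 and 15. The standard errors can be too small where a caste had few counts. Blue bars are called lower in queen, orange higher, and grey not called. The 7 neighbours from Mrjp3 to Mrjp7 lie below -4, while Obp3 and Obp13 point up among neighbours that point down.

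The list of hypopharyngeal gland products had 12 members, all tested and on the plus strand, of which 10 were called lower in queens and 0 higher, against 15% and 15.3% over all plus-strand genes. Their median log2 fold change was -5.97, against -0.04 over all plus-strand genes. Summed over the list, queens had 100.3 and 91.6 CPM and workers 22456 and 23728 CPM. Besides the Mrjp genes, Hbg3, an alpha-glucosidase that splits the sucrose of nectar, had 59.7 and 53.8 CPM in queens against 218 and 211 CPM in workers (-1.92, FDR 8.99e-08), and the related AGLU2 had 14.9 and 13.7 CPM against 33.1 and 38.8 CPM (-1.33, FDR 0.000379). Hbg2 had at most 1.05 CPM in each library and was not called. These glands were cut away from worker brains before RNA was taken, and the part that gland RNA had in the worker levels was not tested.

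Several further genes followed the same pattern. Def1, which encodes the antimicrobial peptide defensin, had 14.5 and 14.0 CPM in queens against 2451 and 2566 CPM in workers (-7.46, standard error 0.10, FDR 3.51e-11). LOC406093 (chromosome 6, 15024551 to 15025504) had 4.51 and 2.85 CPM in queens against 8257 and 8816 CPM in workers (-11.10). LOC406081 (chromosome 5, 11679274 to 11685664) had 1.06 and 1.16 CPM against 3408 and 4358 CPM (-11.79), and its upstream neighbour LOC551044 had 14.3 and 13.2 CPM against 540.1 and 657 CPM (-5.43). LOC725838 (chromosome 8) had 198 and 199 CPM in queens against 9306 and 10776 CPM in workers (-5.66), and LOC409631 (chromosome 8) 9.56 and 8.28 CPM against 764 and 841 CPM (-6.47). The gene table names none of these 5 loci beyond their numbers. Per length, LOC406093 was above every Mrjp gene in workers, at 65067 and 59792 TPM.

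**Figure D4:**
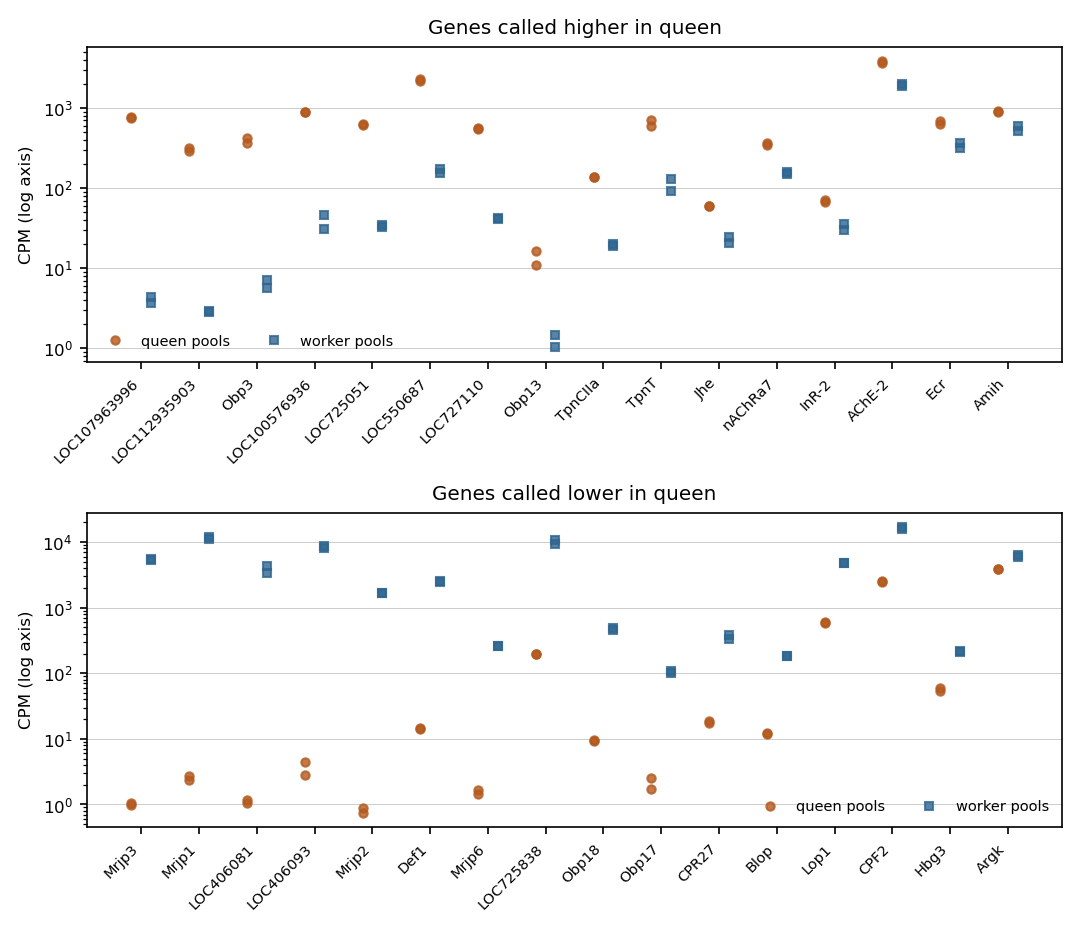
CPM (log axis) of selected plus-strand genes in each library, with the 2 queen pools as circles on the left of each gene and the 2 worker pools as squares on the right. Every queen value exceeds both worker values for the 16 genes of the upper panel, and falls short of both for the 16 genes of the lower one. The upper panel spans from LOC107963996 at 755 and 771 CPM in queens to the narrow gap of Amih.

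Genes higher in queens reached smaller factors and came mostly without a gene name. LOC107963996 (chromosome 16, 4767669 to 4768984) had 755 and 771 CPM in queens against 4.37 and 3.68 CPM in workers, from 51 and 25 worker counts. This was 186 times as much (log2 fold change 7.54, FDR 9.47e-11). LOC100576936 (chromosome 8) had 905 and 894 CPM in queens against 31.2 and 46.0 CPM in workers (4.57). LOC550687 (chromosome 7) had the highest level among the genes higher by a log2 fold change over 3, with 2284 and 2202 CPM in queens against 156 and 172 CPM in workers (3.78). LOC725051 (chromosome 11), with 627 and 610.1 CPM against 33.0 and 34.2 CPM (4.21), was among the 3 genes with the lowest FDR of those higher in queens (2.44e-10). LOC410406 (chromosome 13) had 34.1 and 28.2 CPM in queens, from 1324 and 535 counts, against 1 and 4 counts in the worker libraries. LOC413112 (chromosome 4) had 197 and 84 counts in queens and 0 in both worker libraries, which is at least 10.8-fold higher against a floor of 3 counts per library. LOC100577614 had 205 counts over both queen libraries and 1 over both worker libraries, a ratio of 65.5 with an exact 95% counting interval of 11.6 to 2601.

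Some of these genes lie side by side. On chromosome 13, between 10547007 and 10583286, the neighbours LOC112935903 (log2 fold change 6.72), LOC102653899 (4.52), LOC413083 (2.85) and LOC551845 (2.28) were all called higher in queens, in falling order along the chromosome. The call of LOC551845 was lost without any 1 of the queen and worker libraries (FDR 0.0503 to 0.0981). LOC112935903 had 317 and 291 CPM in queens against 2.83 and 2.95 CPM in workers. On chromosome 5, between 13140939 and 13154408, LOC551369, LOC551176 and LOC725404 were called higher by 2.29, 2.87 and 2.98. LOC551369 had 1023 and 960.4 CPM in queens against 182 and 224 CPM in workers. On chromosome 6, between 3654894 and 3667362, LOC113218830, LOC725017 and LOC107964635 were higher by 4.18, 3.89 and 3.96. Worker replicates 1 and 2 held 6 and 0 counts of LOC113218830 and 13 and 0 of LOC107964635. Their log2 fold changes lay between 2.46 and 9.93 and between 3.06 and 10.78 over the alternative settings, so their size is poorly known. In all, 13 runs of 3 or more neighbouring plus-strand genes passed both the FDR and a log2 fold change of 1 in a single direction. They held 50 genes, 7 runs were higher and 6 lower in queens, and the longest was the 7 genes from Mrjp3 to Mrjp7. This description was chosen after the values were seen and was not tested.

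By chromosome, the share of plus-strand genes called higher in queens lay between 13.0% (chromosome 8) and 23.6% (chromosome 13), and the share called lower between 8.75% (chromosome 16) and 18.3% (chromosome 5). Chromosomes 13 and 16 had the highest median log2 fold changes of the 16, at 0.14 and 0.08. The others were below 0, some of them barely, with chromosome 14 at -0.015 and chromosome 1 at -0.017. Where 0 lies was set by the TMM scaling. Among gene classes, 16.1% of 4751 protein-coding genes were called higher and 16.2% lower, against 10.5% and 7.69% of 741 long noncoding RNA genes. The noncoding genes stood at a lower median level (1.73 CPM against 65.4 CPM).

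Odorant-binding proteins carry small molecules in the fluid of sensory hairs, and chemosensory proteins are small secreted carriers of the same kind. Of the 17 plus-strand genes tested on this list, 10 were called lower in queens, 3 higher and 4 not called, against 15% lower and 15.3% higher over all plus-strand genes, and the median log2 fold change was -2.31 against -0.04. On chromosome 15, Obp18 had 9.23 and 9.70 CPM in queens against 449.6 and 486 CPM in workers (-5.63, FDR 1.19e-10), and its neighbours Obp16, Obp17, Obp19 and Obp21 were lower by log2 fold changes of -4.83, -5.56, -4.91 and -3.85. Obp13, at the start of that cluster, went the other way, with 16.3 and 10.9 CPM in queens against 1.03 and 1.47 CPM in workers (3.52, FDR 1.67e-05). On chromosome 9, Obp3 had 419 and 361 CPM in queens against 5.74 and 7.07 CPM in workers (5.96, FDR 6.95e-10). The adjacent Obp2 had 0.258 and 0.422 CPM in queens against 23.2 and 26.2 CPM in workers (-6.24). Obp4, next to Obp3 on the other side, had 9.95 and 10.2 CPM against 13.9 and 12.4 CPM and was not called. Within each of these clusters, neighbouring genes thus differed between castes in opposite directions. Summed over the 18 plus-strand genes of the list, queens had 7972 and 7334 CPM and workers 6215 and 6061 CPM, most of it CSP3. CSP3, the most abundant chemosensory protein gene on the list, was higher in queens by a modest amount, at 7413 and 6846 CPM against 5411 and 5238 CPM (0.42, FDR 0.00579). CSP3 was not called without queen replicate 1 (0.33, FDR 0.0635) or worker replicate 1 (0.44, FDR 0.0607).

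Olfactory and gustatory receptors bind odorants and tastants on sensory neurons. Of 20 plus-strand receptor genes tested, 5 were called lower in queens, 0 higher and 15 not called, against 15% lower and 15.3% higher over all plus-strand genes. Gr10, the most abundant, had 33.7 and 34.3 CPM in queens against 31.0 and 33.2 CPM in workers and was not called (FDR 0.680). Or30 had 4.25 and 4.11 CPM in queens against 11.1 and 10.5 CPM in workers (-1.37, FDR 0.00223). Or35 had 9.92 and 7.70 CPM against 19.96 and 18.7 CPM (-1.13, FDR 0.00445) and was not called without queen replicate 2 (-0.95, FDR 0.0626) or worker replicate 1 (-1.09, FDR 0.0519). Or41 had 0.155 and 0.158 CPM against 1.97 and 2.06 CPM (-3.64, FDR 0.000595). These 3 genes lie on chromosome 2, where 2 of the runs described above, from 10027136 to 10040643 and from 10069964 to 10079910, were lower in queens and held Or19, and Or35 with Or37. Or19 and Or37 lost their calls when libraries were left out (FDR up to 0.109 and 0.132, both without queen replicate 1).

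Opsins are the light-absorbing proteins of photoreceptors, and the optic lobes had been removed. Both plus-strand opsin genes of the list were called lower in queens, against 15% over all plus-strand genes. Lop1, the long-wavelength opsin, had 576 and 598 CPM in queens against 4828 and 4843 CPM in workers (-3.04, standard error 0.09, FDR 6.81e-09), and Blop, the blue opsin, 12.0 and 12.2 CPM against 181 and 186 CPM (-3.92, FDR 8.41e-10). The 2 genes together came to 588 and 611 CPM in queens and 5008 and 5029 CPM in workers.

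Cuticular proteins and apidermins form the outer covering of the insect. Of 15 plus-strand members tested, 10 were called lower, 1 higher and 4 not called, against 15% lower and 15.3% higher over all plus-strand genes, and the median log2 fold change was -0.83 against -0.04. CPF2, the most abundant, had 2547 and 2484 CPM in queens against 16113 and 16974 CPM in workers (-2.72, FDR 7.12e-08). CPR27, a chitin-binding cuticular protein gene, had 18.7 and 17.5 CPM against 338 and 379 CPM (-4.30, FDR 8.41e-10), and the apidermin gene Apd-1 945 and 955 CPM against 2576 and 3140 CPM (-1.59). CPR22 was the exception, with 62.7 and 55.2 CPM in queens against 18.9 and 33.6 CPM in workers (1.19, FDR 0.00386), and it was no longer called without queen replicate 1 (1.06, FDR 0.0625). Summed over the list, queens had 8071 and 7678 CPM and workers 25682 and 27564 CPM. What part tissue carried along in dissection had in these values, or in those of opsin and muscle genes, was not tested.

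Muscle markers moved in the opposite direction. All 4 plus-strand troponin genes of the list were called higher in queens, against 15.3% over all plus-strand genes. TpnT, which anchors the troponin complex to the thin filament, had 707 and 605 CPM in queens against 92.6 and 128 CPM in workers (2.58, standard error 0.16, FDR 1.70e-06). The calcium sensors TpnCIIa (2.82), TpnCIIb (2.08) and TpnCI (1.91) were higher by similar factors. The sum over the 4 genes was 1126 and 1014 CPM in queens and 177 and 228 CPM in workers, with no overlap. The homeotic genes of the trunk segments Antp and Ubx were also called higher. Antp had 24.8 and 27.2 CPM in queens against 6.60 and 8.40 CPM in workers (1.81, FDR 0.000113), and Ubx 8.40 and 8.49 CPM against 1.54 and 2.80 CPM (2.01, FDR 0.00203). With LOC410643 (1.28) they formed a run of neighbours on chromosome 16, although LOC410643 was not called without queen replicate 1 (FDR 0.0894), queen replicate 2 (FDR 0.0968) or worker replicate 1 (0.77, FDR 0.0840). Dll, the distal-limb homeobox gene, was higher at a much greater level, with 303 and 294 CPM against 163 and 182 CPM (0.80, FDR 0.000107). Of the 8 plus-strand developmental transcription factors tested, 4 were called higher and 0 lower, against 15.3% and 15% over all plus-strand genes. The fourth, Msx, lost its call in 11 of 22 alternative settings, among them the removal of any queen or worker library (FDR up to 0.228 without worker replicate 1).

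**Figure D5:**
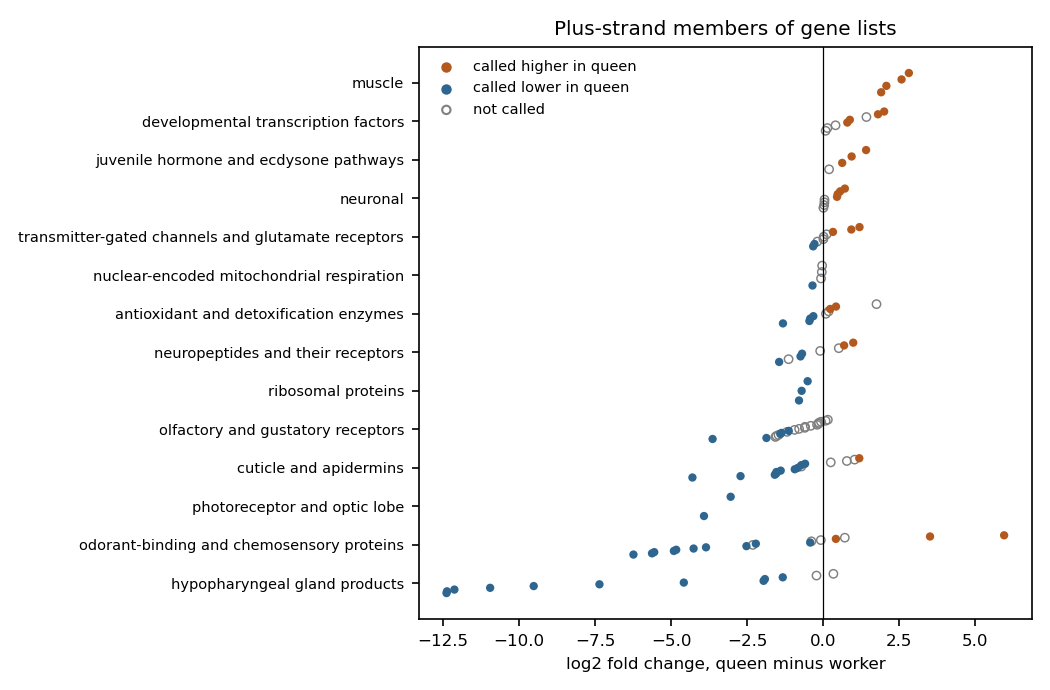
Log2 fold change (queen minus worker) of each plus-strand gene tested in 14 gene lists, 1 row a list, with called genes filled (orange higher, blue lower in queen) and the others open. Opsin genes and most gland, cuticle and odorant-binding genes lie left of 0, and muscle, hormone and developmental genes lie right of it.

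Juvenile hormone and ecdysone act through receptors in the cell nucleus. Of the 4 plus-strand genes of the juvenile hormone and ecdysone list, 3 were called higher and 0 lower, against 15.3% and 15% over all plus-strand genes. Jhe, the esterase that breaks down juvenile hormone, had 59.8 and 59.9 CPM in queens against 20.6 and 24.6 CPM in workers (1.41, standard error 0.11, FDR 1.04e-05). LOC724216, listed with the synonym jhamt for the methyltransferase that completes juvenile hormone synthesis, had 153 and 134 CPM against 97.9 and 87.8 CPM (0.63, FDR 0.00121). Genes for making and for degrading the hormone were thus both higher. Ecr, the ecdysone receptor, had 685 and 628 CPM against 316 and 369.8 CPM (0.94, FDR 0.000185). Err, the estrogen-related receptor, had 150.2 and 133 CPM against 119.9 and 128 CPM and was not called (FDR 0.120). InR-2, an insulin receptor, had 71.0 and 67.8 CPM in queens against 30.3 and 35.2 CPM in workers (1.09, FDR 6.12e-05). The other genes of this list, Usp, Kr-h1, E74, E75, Br-c and Mblk-1 among them, lie on the minus strand. None was called, against 11.6% of all minus-strand genes.

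Acetylcholine is the main excitatory transmitter of the insect brain. AChE-2, an acetylcholinesterase, which ends the action of acetylcholine, had 3832 and 3652 CPM in queens against 1885 and 1993 CPM in workers (0.95, standard error 0.08, FDR 1.53e-05). A pair of subunits of nicotinic acetylcholine receptors was higher too. The subunit nAChRa7 had 363 and 348 CPM against 149 and 161 CPM (1.20, FDR 2.04e-06), and nAChRa1 714 and 626 CPM against 331 and 374 CPM (0.93, FDR 9.35e-05). The subunit nAChRa8 was slightly lower, with 135 and 136 CPM against 166 and 164 CPM (-0.28, FDR 0.0173), but not without queen replicate 2 (FDR 0.0695), worker replicate 1 (FDR 0.0631) or worker replicate 2 (FDR 0.0539), and on the TPM scales its log2 fold change was -0.12 (FDR 0.201 and 0.219). The subunit nAChRa3 had 236 and 229.9 CPM against 230.1 and 233 CPM and was not called. Of 9 plus-strand transmitter-gated channels and glutamate receptors, 3 were called higher, 2 lower and 4 not called, against 15.3% higher and 15% lower over all plus-strand genes, and the median was 0.02 against -0.04. Over all minus-strand genes tested the median log2 fold change was 0.26. Of the 8 minus-strand members, 5 were called higher, against 7.35% of all minus-strand genes, and 0 lower. Among them mGlutR1, a metabotropic glutamate receptor, had 11.005 and 11.6 CPM assigned in queens against 4.28 and 3.68 CPM in workers (1.49, FDR 0.0018). GluCl (1.83), LCCH3 (1.99) and nAChRb2 (2.73) were not called without worker replicate 1 (FDR 0.201, 0.217 and 0.167) or queen replicate 2 (FDR 0.298, 0.186 and 0.107).

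Of 8 plus-strand neuronal markers, 4 were called higher in queens and 0 lower, against 15.3% and 15% over all plus-strand genes, and the median was 0.25 against -0.04. Of 10 minus-strand members, 0 were called higher and 1 lower, against 7.35% and 4.24% of all minus-strand genes. The gene called lower was Para, with 38.5 and 44.9 CPM assigned in queens against 51.3 and 67.9 CPM in workers (-0.51, FDR 0.034). Its call was lost in 9 of 21 alternative settings. Amih, a hyperpolarization-activated channel, had 929.8 and 897 CPM in queens against 524 and 589 CPM in workers (0.72, FDR 0.000119), and NLG-4, a neuroligin that joins synapses, 137 and 125 CPM against 82.3 and 96.0 CPM (0.56, FDR 0.00176). The call of brp, an active-zone scaffold gene (1194 and 1138 CPM against 749 and 923 CPM, 0.48, FDR 0.0101), was lost without queen replicate 1 (FDR 0.118), queen replicate 2 (FDR 0.0553) or worker replicate 1 (FDR 0.138). Cac, a voltage-gated calcium channel, had 1122 and 1034 CPM against 999.8 and 1106 CPM and was not called. The 8 genes summed to 4890 and 4578 CPM in queens and 3704 and 4161 CPM in workers. Of the 2 plus-strand glial markers, Gat-a, a GABA transporter, was higher (776 and 739 CPM against 489 and 529.9 CPM, 0.57, FDR 0.00035), and GlnS, glutamine synthetase, was not called (4143 and 4135 CPM against 3765 and 4114 CPM). In bulk tissue, more cells of a type and more RNA per cell cannot be told apart.

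Dopamine and serotonin are biogenic amines that tune behaviour. Of the 4 genes of their list on the plus strand, 1 was called higher and 0 lower, against 15.3% and 15% over all plus-strand genes. Dop1 and DopR2, both dopamine receptors, and TyHyd, the enzyme that starts dopamine synthesis, were not called. Dop1 had 220.1 and 199 CPM in queens against 201 and 219.6 CPM in workers, and the castes overlapped. The serotonin receptor gene 5-HT1 was higher, with 356 and 342 CPM against 251 and 288 CPM (0.37, FDR 0.00755), but not without queen replicate 1 (0.31, FDR 0.0777) or worker replicate 1 (0.27, FDR 0.0829).

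Of 8 plus-strand genes of neuropeptides and their receptors, 3 were called lower, 2 higher and 3 not called, against 15% lower and 15.3% higher over all plus-strand genes. Tk, which encodes tachykinin peptides, had 218 and 204 CPM in queens against 317 and 389.9 CPM in workers (-0.74, FDR 0.000485). SIFR, a receptor for SIFamide, had 723 and 698 CPM against 426 and 454 CPM (0.69, FDR 6.59e-05). Of the others called, Crzr, the corazonin receptor gene, was lower at 31.1 and 36.6 CPM against 53.7 and 55.6 CPM (-0.69, FDR 0.00535), but not without queen replicate 1 (-0.61, FDR 0.0562). Akhr, the adipokinetic hormone receptor gene (0.99), and Eth, which encodes ecdysis-triggering hormone (-1.45), had at most 8.12 CPM, and leaving out worker replicate 1 raised their FDR to 0.135 and 0.218. Akhr was also not called without queen replicate 1 (FDR 0.0794) or queen replicate 2 (FDR 0.0829), and Eth not without any 1 of the queen and worker libraries. Ac3, an adenylate cyclase, which makes cyclic AMP, was also higher, with 1012 and 957 CPM against 571 and 651 CPM (0.69, FDR 0.000197).

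Ribosomal proteins build the ribosome in every cell. The list of ribosomal proteins held 7 genes, and genes outside it are not described. All 3 of its plus-strand members were called lower in queens, against 15% over all plus-strand genes. Rps14 had 259 and 228 CPM against 393 and 452 CPM (-0.79, FDR 0.000259), RpL35 287 and 246 CPM against 365 and 393 CPM (-0.51, FDR 0.0023), and Rpl41 215 and 165 CPM against 299 and 323 CPM (-0.71, FDR 0.00478). Rpl41 was not called without queen replicate 2 (-0.52, FDR 0.0723). Argk, arginine kinase, which buffers ATP, had 3948 and 3934 CPM in queens against 5958 and 6285 CPM in workers (-0.64, FDR 0.000624). ATP5G2, a subunit of ATP synthase, and the chaperone gene Hsp90 were not called, with log2 fold changes of -0.03 each. Among 9 plus-strand antioxidant and detoxification genes, 4 were called lower and 2 higher, against 15% and 15.3% over all plus-strand genes. GstD1, a glutathione transferase, had 6.70 and 7.07 CPM in queens against 16.5 and 17.98 CPM in workers (-1.32, FDR 0.00082), and another transferase, GstS1, 143 and 137 CPM against 105 and 104 CPM (0.42, FDR 0.0023).

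Of the immune list, PPO, which encodes prophenoloxidase, was lower (35.7 and 36.0 CPM in queens against 67.9 and 64.6 CPM in workers, -0.89, FDR 0.000194). PGRP-S3, a peptidoglycan recognition protein gene, was higher (52.1 and 50.4 CPM against 14.6 and 15.3 CPM, 1.78, FDR 1.14e-06). Counting Def1, 3 of 7 plus-strand members were called lower and 1 higher, against 15% and 15.3% over all plus-strand genes. Both plus-strand genes of the DNA methylation list were called lower, against 15% over all plus-strand genes. Dnmt1a, the maintenance DNA methyltransferase, had 13.8 and 16.2 CPM in queens against 32.3 and 29.3 CPM in workers (-1.04, FDR 0.000908). Dnmt3, the de novo enzyme, had 65.6 and 61.3 CPM against 78.9 and 79.6 CPM (-0.32, FDR 0.0279), and it lost its call without any of the 4 queen and worker libraries, with an FDR of up to 0.175 without queen replicate 2, and also on both TPM scales, where its log2 fold change was -0.13 (FDR 0.302 and 0.307). Dsx, the doublesex gene of sexual differentiation, had 80.2 CPM in both queen libraries against 65.7 and 64.7 CPM in workers (0.30, FDR 0.0458), and lost its call in 12 of 22 alternatives, the removal of any queen or worker library among them (FDR up to 0.225 without queen replicate 1).

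The division of a gene's counts between its transcripts also differed. Of 2075 plus-strand genes with 2 or more transcripts and at least 100 counts in each library, 169 had a transcript whose share differed by over 20 percentage points between castes with no overlap. Of these, 86 were called as genes and 83 were not, against 30.3% called over all plus-strand genes. That share also covers genes with fewer than 100 counts, where fewer were called. The shares are estimates where transcripts share exons, and they were not tested. The largest shift was in LOC725489 (chromosome 1), where the transcript of 1029 nucleotides took 85.1% and 82.9% of the gene's counts in queens against 4.5% and 13.9% in workers, while another, of 1212 nucleotides, took 8.6% and 6.9% against 73.8% and 67.2%. The gene itself was higher in queens, with 196 and 185 CPM against 20.4 and 24.0 CPM (3.12, FDR 2.56e-08). The next largest was in LOC100578937 (chromosome 7), where the pools of a caste differed widely. Its transcript of 3301 nucleotides took 1.7% and 20.5% in queens against 54.5% and 95.5% in workers. In LOC725479 (chromosome 6) the transcript of 14372 nucleotides took 77.4% and 100% against 29.8% and 48.4%. For the minus-strand gene LOC551792 (chromosome 1), that of 4673 nucleotides took 49.4% and 59.1% against 3.9% and 1.1%. In LOC552829 (chromosome 13) the transcript of 1334 nucleotides took 83.2% and 88.3% in queens against 34.5% and 37.8% in workers. In LOC551044, named above, the transcript that starts at 11669303 took 64.9% and 87.6% in queens against 21.9% and 17.5% in workers.

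Minus-strand genes of the lists are given as counts assigned. All minus-strand genes tested had a median log2 fold change of 0.26, so they leaned to queens as a class. Vg, vitellogenin, the egg yolk precursor, had 28.6 and 75.1 CPM in queens, against 1 and 0 counts in workers. The storage protein genes Hex110 (4.48 and 6.43 CPM in queens against 2.40 and 1.62 CPM in workers) and Hex70c (3.09 and 2.48 CPM against 0.600 and 0.884 CPM) were called higher, Hex110 not without any 1 of the queen and worker libraries (FDR up to 0.173 without queen replicate 2) and Hex70c not without worker replicate 1 (1.65, FDR 0.0659). In contrast, Tsf1, transferrin, the only plus-strand member of the fat body list, was not called (1622 and 1548 CPM against 1708 and 1935 CPM). CPF1, a cuticle gene, was called lower at 8.43 and 6.49 CPM in queens against 82.2 and 84.6 CPM in workers. Hex70a, Usp and Syt1 had at most 11.2 CPM in a queen or worker library and were not called. LOC411978, with 289 counts over both queen libraries and 3 over both worker libraries, spans the same stretch of chromosome 6 as LOC107964635 on the plus strand, which was higher in queens, and whether their reads were told apart was not tested.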

How the data were processed

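Poly(A) RNA from pools of 5 brains was sequenced with a strand-keeping kit in 150 base paired reads. The authors indexed EnsemblMetazoa transcripts of Amel_HAv3.1 with Kallisto (version not given in the sources used here), quantified reads by strand, and deposited estimated counts, which are not normalized, and TPM, scaled by transcript length and library total, for 28409 targets. Exon coordinates placed 28377 targets on 12323 RefSeq genes of the same assembly, and the 32 others, with between 2.18% and 3.95% of counts per library, were left out, as were 55 ribosomal RNA genes. Counts were summed per gene and rounded. A gene was kept if 3 or more of the 6 libraries held 5 or more counts (9694 of 12268). Tests used edgeR 4.0.16 in R 4.3.3 (TMM, quasi-likelihood fit of caste over all 6 libraries, queen minus worker, Benjamini-Hochberg over all tested genes), with 3 residual degrees of freedom and a coefficient of biological variation of 14.6%. Each standard error is the fold change divided by the root of its F, so it is the test statistic on another scale. Where a caste had few counts and the fold change was large, it can be smaller than counting error alone. Alternatives used limma 3.58.1 and DESeq2 1.42.0. With 2 libraries against 2, no exact test of a single gene was run.

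On simulated data with 200 genes changed by a factor of 4 in queens (5 draws, 9384 to 9406 genes tested), 74.0% were recovered for queen against worker and 8.90% of calls were false. The members, the 31 gene lists and the rules were chosen with earlier results of these data known. Named genes were the 8 with the largest called fold change in each direction (at least 1 CPM, no overlap), likewise among genes with a symbol beyond a locus number, the 3 lowest FDR in each direction, up to 4 called and 2 uncalled members per list, and the 6 genes with the largest shift of transcript share. The 16 largest plus-strand genes in each direction, overall and among symbols, the runs, the clusters and 29 other genes were added after the values were seen. Counting intervals and the floor of 3 counts cover counting error only. The submitters' sample fields give the molecule as genomic DNA, while the protocol describes mRNA.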

Additional observations from a re-analysis of the deposited data

How the results depend on the processing

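At the gene level, in the settings tried, called genes shared with the main comparison always kept their direction. Leaving out 1 library each gave between 1258 and 2585 called genes, with 610 to 1398 higher and 533 to 1187 lower in queens, 475 to 913 and 471 to 957 on the plus strand, and 516 to 1053 with a log2 fold change over 1 in size. The lowest counts came without queen replicate 1, queen replicate 2 or worker replicate 1 (1282, 1258 and 1307). Where this left a caste with 1 library, that library was assumed to vary like the others. Testing each transcript on its own called 1023 of 17043. With limma on log2(TPM + 1) and log2(TPM + 0.1), 630 and 608 genes were lower in queens, and on the plus strand 1332 and 1299 were higher and 512 and 493 lower. PDHB, not called here (log2 fold change -0.01), was then called higher (0.17 in both). A fit of plus-strand genes alone called 2214, 1672 of them among the 1674 plus-strand calls here, and keeping ribosomal RNA genes 2171. Both were chosen after seeing the data. DESeq2 called 2094. Of 127 named genes called, 95 kept their call under every alternative that gave a value, and leaving out 1 library kept 100 to 127.

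Replicate numbers did not pair the samples (correlation of deviations -0.129 between queen and worker, -0.145 between queen and drone and -0.496 between worker and drone). With the replicate block 1683 genes were called. With the numbers crossed in the queen libraries only, an alternative added after seeing the data, 2102 were called. At this depth, a floor of 3 counts corresponds to 0.442 CPM in the shallower worker library.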
